A study of Homo sapiens with 8 samples.

Results

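The miR-29 family in HCT116 cells was taken as the 7 mature miRNAs cut from its 4 hairpins, miR-29a, miR-29b-1, miR-29b-2 and miR-29c, among the 2575 miRNA names counted in each library. They were chosen by name, 3 of them 3p arms and 4 of them 5p arms. HCT116 is an established human colorectal cancer line, and passages 16 to 19 were used. For 4 libraries, cells spent 6 hours in co-culture with ETBF (enterotoxigenic Bacteroides fragilis, an anaerobe of the colon whose toxin is a zinc metalloprotease), at a multiplicity of infection of 500. The other 4 libraries, titled untreated, came from HCT116 cells given bacterial medium without ETBF. Small RNA of the cells was sequenced, and the comparison addresses how host miRNAs differ after a short exposure to ETBF. All libraries come from 1 cell line, and no label says whether the replicates came from separate cultures. The p-values thus reflect only the spread among these libraries, part of which may be technical.

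As background, each hairpin is cut into a 5p and a 3p arm, and the arm that Argonaute keeps as the guide recognises targets mainly through its seed, bases 2 to 8. In the miR-29 family the 3p arm is the usual guide. Its known targets include collagens and other extracellular matrix genes, the DNA methyltransferases DNMT3A and DNMT3B, the anti-apoptotic gene MCL1 and the cell cycle kinase CDK6. The family is often low in tumours, and both MYC and NF-kB have been reported to repress its transcription.

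The mature sequences are shown because the family is defined by a shared 3p seed, because miR-29a-3p and miR-29c-3p are almost the same molecule, and because only the 5p arms tell the miR-29b loci apart. They are RefSeq sequences, with bases 2 to 8 in capitals, and all 7 members were matched.
hsa-miR-29a-3p: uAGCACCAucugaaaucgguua
hsa-miR-29b-3p: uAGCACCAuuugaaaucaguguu
hsa-miR-29c-3p: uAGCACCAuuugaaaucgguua
hsa-miR-29a-5p: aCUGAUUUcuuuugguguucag
hsa-miR-29b-1-5p: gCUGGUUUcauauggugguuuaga
hsa-miR-29b-2-5p: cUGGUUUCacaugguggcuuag
hsa-miR-29c-5p: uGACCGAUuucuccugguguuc

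The 3 3p arms carry the seed AGCACCA, and no other name among the 2370 human mature miRNA names of the RefSeq table has it. None of the 4 5p seeds is shared with any name of that table. Counted from 1 at the 5′ end, miR-29a-3p becomes miR-29c-3p by the single change C10U. MiR-29b-3p and miR-29c-3p have the same first 17 bases and then differ by A18G, G21U and U22A, and miR-29b-3p is 1 base longer. Only 1 base tells miR-29a-3p and miR-29c-3p apart, so the split of reads between them is uncertain where the counting allowed a mismatch. Reads cut short within their first 17 bases cannot separate miR-29b-3p from miR-29c-3p. MiR-29b-3p is identical from both of its hairpins, so its level cannot be assigned to a locus. Its 3′ end holds a short motif known in human cells to direct miR-29b to the nucleus. The 5p arms of miR-29b-1 and miR-29b-2, set against each other with a shift of 1 base, matched at 20 of 22 aligned bases.

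On GRCh38.p14, the build of the RefSeq table and not the GRCh37.p5 build named in the submitters' processing notes, MIR29A lies at chr7:130876747-130876810 and MIR29B1 at chr7:130877459-130877539, with 648 bases between them. MIR29C lies at chr1:207801852-207801939 and MIR29B2 at chr1:207802443-207802523, with 503 bases between them. All 4 hairpins are on the minus strand. The chromosome 1 pair lies inside the long noncoding host gene MIR29B2CHG, within an exon in GENCODE release 29. No other RefSeq gene of the table spans the chromosome 7 pair. In GENCODE release 29, 4 transcripts of the long noncoding gene AC016831.6 span MIR29A and MIR29B1, which lie in their introns. There, 1 transcript of the long noncoding RNA LINC-PINT has MIR29B1 inside an exon and overlaps MIR29A with an exon in part.

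The family was almost wholly miR-29a-3p. On the CPM scale (counts scaled to library size with TMM factors), miR-29a-3p averaged 7229 with ETBF and 6877 in controls and ranked 19th of 480 tested miRNAs. MiR-29b-3p averaged 593 with ETBF and 477 in controls, and miR-29c-3p 17.8 with ETBF and 11.2 in controls. The 5p arms lay between 5.85 and 14.7 CPM with ETBF and between 3.57 and 7.95 CPM in controls. Mature miRNAs are of nearly equal length (22 to 24 bases here), so these levels can be set side by side, although ligation favours some ends over others. Averaged over all libraries, miR-29a-3p was 13.2 times as high as miR-29b-3p and 487 times as high as miR-29c-3p.

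**Figure D1:**
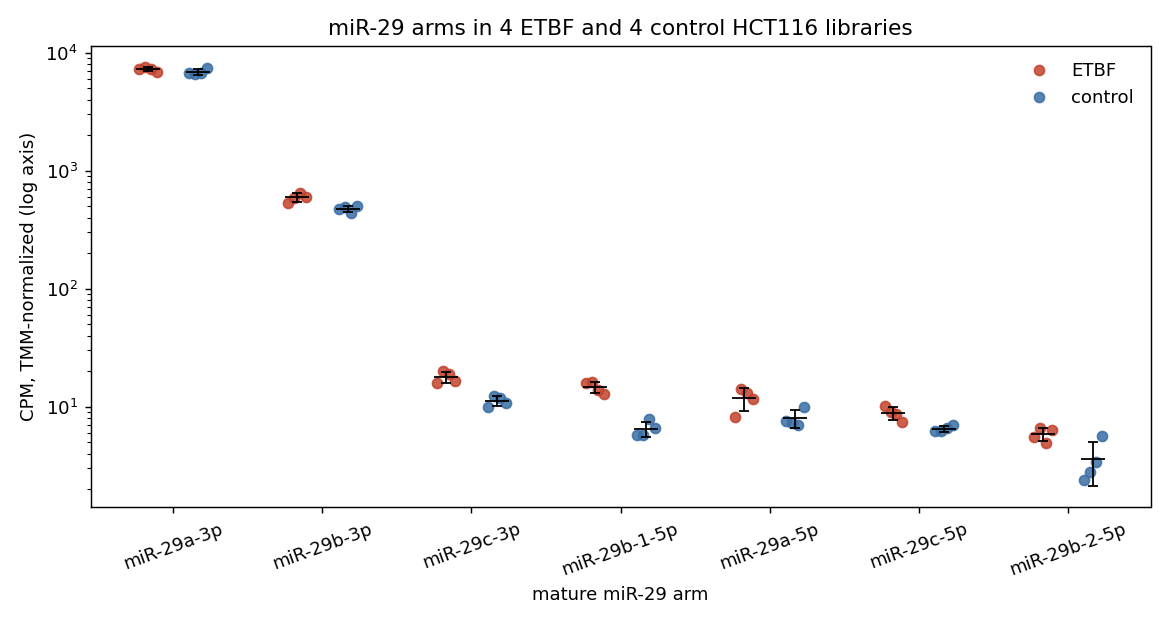
TMM-normalized CPM of each miR-29 arm (log axis) in 4 ETBF and 4 control libraries, with points for libraries, a bar at the mean and whiskers of 1 SD. MiR-29a-3p sits at means of 7229 CPM (ETBF) and 6877 CPM (control), and the ETBF points of miR-29b-3p, miR-29c-3p, miR-29b-1-5p and miR-29c-5p all lie above the control points.

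With ETBF, miR-29a-3p did not pass the test, while the less abundant guide arms miR-29b-3p and miR-29c-3p rose 1.24-fold and 1.59-fold. Of the passenger arms, 2 rose as well, miR-29b-1-5p by 2.28-fold and miR-29a-5p by 1.46-fold. Means of all 7 arms were higher with ETBF under TMM, and the sign of miR-29a-3p turned with upper-quartile scaling (log2 fold change -0.010, adjusted p = 0.927). In all, 4 of the 7 members were called higher, 0 lower and 3 did not pass with edgeR, and none was lower at an unadjusted p under 0.05 or with DESeq2. Among all 480 tested miRNAs 34.4% were called, 19.8% as higher and 14.6% as lower (edgeR quasi-likelihood test, Benjamini-Hochberg adjusted p under 0.05). Among the 240 with a mean under 20 CPM, 15.8% were called higher and only 5% lower. All members but miR-29a-3p and miR-29b-3p were at that level. With upper-quartile scaling the calls over all miRNAs split into 71 higher and 89 lower, against 95 higher and 70 lower under TMM. For 4 of the 7 members the lowest ETBF value exceeded the highest control value. Over all tested miRNAs 33.8% had no overlap, counted in either direction. The median log2 fold change of the members was 0.54, beside 0.01 over all tested miRNAs. CPM values are shares of a library, so a rise of 1 RNA cannot be told apart from a fall of the others. In these bulk libraries, fewer cells that hold an RNA and less of it per cell cannot be told apart either.

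**Figure D2:**
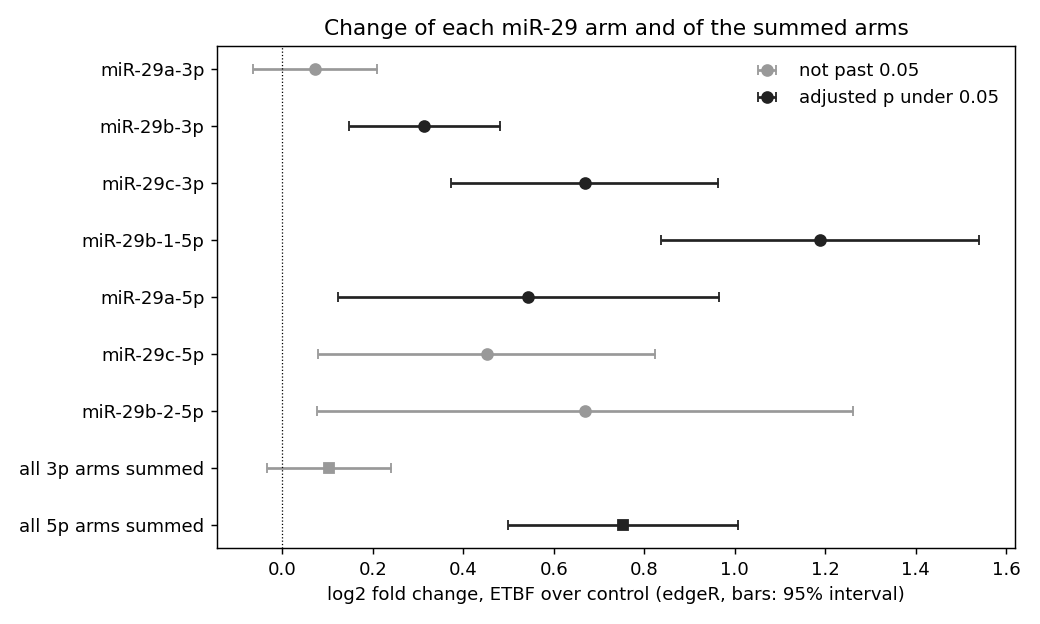
Log2 fold change, ETBF over control, of each miR-29 arm (circles) and of the summed 3p and 5p arms (squares), with 95% intervals from edgeR. The interval of miR-29a-3p runs from -0.06 to 0.21 and includes 0, whereas that of miR-29b-1-5p runs from 0.84 to 1.54.

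Guide arms. MiR-29a-3p, the main guide of the family, was at 7265, 7562, 7229 and 6861 CPM in ETBF replicates 1 to 4, against 6770, 6630, 6695 and 7413 CPM in control replicates 1 to 4. The groups overlapped, with control replicate 4 above 3 of the ETBF libraries. Its log2 fold change was 0.07 (SE 0.06, adjusted p = 0.423), and its 95% interval allows a change between 0.957-fold and 1.16-fold. All 8 of its counts were even numbers, from 18332 to 49706, which held for 34 of the 1013 names with counts in at least 4 libraries. RefSeq gives it 1 hairpin, and whether its reads were counted more than once was not tested. A doubled count would leave its ratio between groups as it is and overstate its level.

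MiR-29b-3p, which can come from either chromosome, was at 537, 590, 652 and 595 CPM with ETBF and at 471, 493, 440 and 506 CPM in controls. Every ETBF library lay above every control, by as little as 537 against 506 CPM. The mean was 593 ± 47.2 with ETBF, against 477 ± 28.9 for controls (SD over 4 libraries a group), a log2 fold change of 0.31 (SE 0.08, edgeR adjusted p = 0.00479). Its counts were odd in all 4 ETBF libraries (2497, 2511, 2539 and 1589) and even in all 4 controls (2368, 2798, 2312 and 3390). Odd numbers cannot come from doubling every read, so its 2 hairpins did not double all of the counts with ETBF. Parity leaves a doubling of part of the reads untested, and for the controls any doubling. MiR-29b-3p is AU-rich, with 34.8% GC, and its change was 0.20 (adjusted p = 0.0484) after removal of a trend on GC content.

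MiR-29c-3p is the guide of the miR-29c hairpin on chromosome 1. It had 74, 85, 73 and 44 counts with ETBF and 50, 70, 62 and 72 counts in controls. Relative to library size this was 15.9, 19.97, 18.8 and 16.5 CPM with ETBF, against 9.94, 12.3, 11.8 and 10.7 CPM in controls. No ETBF library fell to the level of any control. The log2 fold change was 0.67 (SE 0.14, edgeR adjusted p = 0.00122), with a 95% interval of 1.30-fold to 1.95-fold. Its counts are about 0.2% of the summed 3p counts, at 0.226% ± 0.0183 with ETBF, against 0.153% ± 0.0191 for controls (SD over 4 libraries a group).

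Summed to 1 row, the 3p arms gave 7817, 8172, 7900 and 7472 CPM with ETBF and 7251, 7135, 7146 and 7929 CPM in controls. Control replicate 4 stood above the other controls and within the ETBF range. The pool of guides with the AGCACCA seed had a log2 fold change of 0.10 (SE 0.06, edgeR adjusted p = 0.249), with a 95% interval of 0.976-fold to 1.18-fold. The sum of miR-29a-3p and miR-29c-3p, which does not depend on how reads were split between that pair, was at 0.08 (SE 0.06, adjusted p = 0.384), and its sign turned with upper-quartile scaling.

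Passenger arms. MiR-29b-1-5p, the arm that marks the chromosome 7 copy of miR-29b, had 74, 69, 54 and 34 counts with ETBF and 29, 33, 41 and 44 counts in controls. In CPM it was at 15.9, 16.2, 13.9 and 12.7 with ETBF, against 5.77, 5.81, 7.79 and 6.56 in controls. The lowest ETBF library was well above the highest control. Its mean was 14.7 ± 1.67 CPM with ETBF, against 6.48 ± 0.947 CPM for controls (SD over 4 libraries a group), and its log2 fold change of 1.19 (SE 0.17, edgeR adjusted p = 4.20e-05) was the greatest of the 7 members. After thinning every library to 2591655 counts, in a single random draw, the change was 0.89 (adjusted p = 0.00132).

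MiR-29a-5p, the passenger of the dominant guide, was at 8.17, 14.1, 13.1 and 11.6 CPM with ETBF, against 7.56, 7.22, 7.03 and 9.99 CPM in controls. ETBF replicate 1 lay within the control range and the other 3 lay above it. The log2 fold change was 0.54 (SE 0.20, edgeR adjusted p = 0.0435). This call was close to the threshold: it was lost in 12 of 18 alternatives, among them DESeq2 (adjusted p = 0.0825), limma-voom (adjusted p = 0.0589) and the omission of ETBF replicate 2 (adjusted p = 0.187), 3 (0.132) or 4 (0.0733) or of control replicate 1 (0.0755), 2 (0.109) or 3 (0.107).

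MiR-29c-5p, the passenger of miR-29c-3p, was at 10.1, 8.93, 8.73 and 7.49 CPM with ETBF and at 6.16, 6.16, 6.65 and 7.01 CPM in controls. The groups did not overlap, yet the log2 fold change of 0.45 (SE 0.18) did not pass with edgeR (adjusted p = 0.0578). With library totals in place of TMM it passed (0.50, adjusted p = 0.0425).

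MiR-29b-2-5p, the arm that marks the chromosome 1 copy of miR-29b, had the fewest counts of the family, 26, 28, 19 and 17 with ETBF and 12, 16, 18 and 38 in controls. It was at 5.59, 6.58, 4.88 and 6.36 CPM with ETBF, against 2.39, 2.82, 3.42 and 5.67 CPM in controls. Control replicate 4 alone reached into the ETBF range. The log2 fold change was 0.67 (SE 0.28, edgeR adjusted p = 0.0758), and without control replicate 4 it was 1.01 (adjusted p = 0.00982).

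The 4 passenger arms summed to 185, 195, 158 and 102 counts with ETBF and 110, 125, 131 and 196 counts in controls, a sum taken after their values were seen. At 39.8, 45.8, 40.6 and 38.2 CPM with ETBF and 21.9, 22.0, 24.9 and 29.2 CPM in controls, the groups did not overlap. The sum was 1.69-fold higher with ETBF, a log2 fold change of 0.75 (SE 0.12, edgeR adjusted p = 0.000136). Outside the family, of 116 less abundant arms of other hairpins with both arms tested, 27.6% were called higher and 9.48% lower, with a median log2 fold change of 0.15. Among the 116 more abundant arms of the same hairpins, 14.7% were called higher and 25.9% lower. Library depth moved with the groups, with totals of 2591655 to 4706156 counts with ETBF and 5243400 to 6522542 in controls. Of 5 tested entries that resemble other RNA classes, 4 were called higher, miR-7641 (2.86, SE 0.23), miR-3687 (1.72, SE 0.34), miR-6087 (1.51, SE 0.49) and miR-1303 (0.84, SE 0.14), with a median log2 fold change of 1.51, and the 11 of 12 listed entries that the files name summed to 199 to 611 CPM with ETBF against 50.9 to 178 CPM in controls. The part of these entries in the higher level of the passenger arms was not tested. After thinning to equal depth, in a single random draw, the summed passenger arms were at 0.70 (adjusted p = 0.00116).

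**Figure D3:**
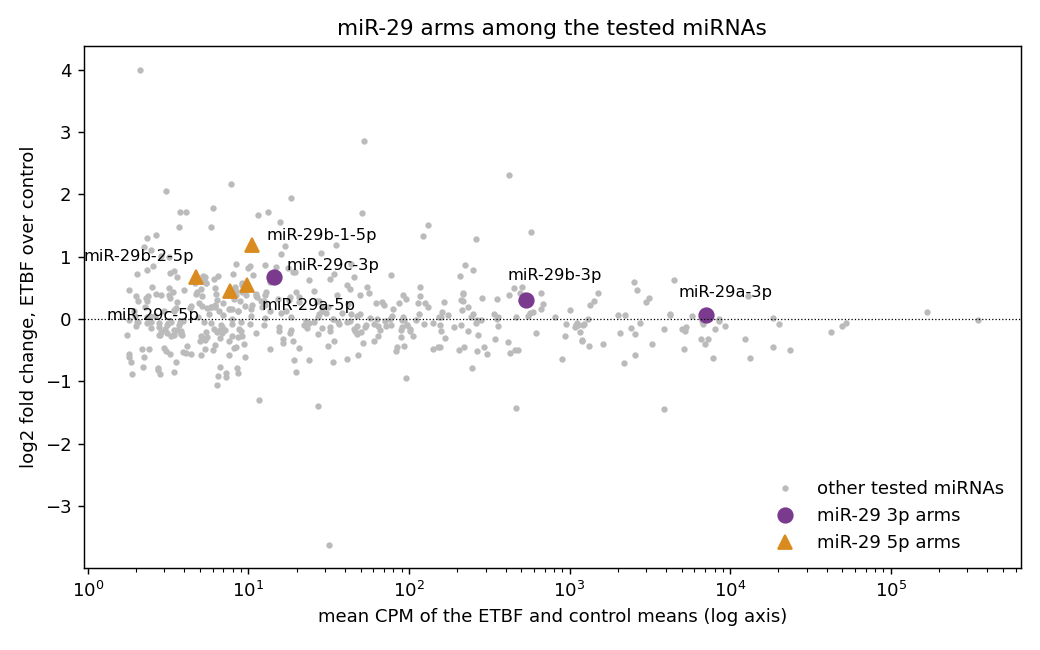
Log2 fold change, ETBF over control, against mean CPM (log axis) for the 480 tested miRNAs, with miR-29 3p arms as purple circles and 5p arms as orange triangles. The 7 miR-29 arms all lie above 0, and the lower the level, the further the 3p arms lie from it: 0.07 for miR-29a-3p, 0.31 for miR-29b-3p and 0.67 for miR-29c-3p.

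The ratio of the 5p to the 3p arm within a library does not depend on the scaling between libraries. It was tested with limma over 120 arm pairs, of which 32.5% were called, 12.5% as higher and 20% as lower. For miR-29b-1 the log2 ratio of its 5p arm to miR-29b-3p averaged -5.33 ± 0.242 with ETBF, against -6.19 ± 0.266 for controls (SD over 4 libraries a group), a difference of 0.86 (SE 0.18, adjusted p = 0.00906). Without a filter on low counts this call was lost (adjusted p = 0.152). For miR-29a the ratio was 0.48 higher (SE 0.18, adjusted p = 0.0702), and without ETBF replicate 1 it was 0.64 higher (adjusted p = 0.0160). For miR-29b-2 it was 0.46 higher (SE 0.25, adjusted p = 0.177), while without control replicate 4 it was 0.68 higher (adjusted p = 0.0375) and without control replicate 1 it was 0.31 higher (adjusted p = 0.383). The miR-29c hairpin had the opposite sign, at -0.23 (SE 0.16, adjusted p = 0.286), and without ETBF replicate 1 it was at -0.35 (adjusted p = 0.0963). In all, 1 of the 4 pairs was called. The ratios of miR-29b-1 and miR-29b-2 share miR-29b-3p as their denominator, so they are not independent. MiR-29b-3p holds the product of both hairpins, so neither is the arm ratio of 1 hairpin. A changed share of the loci would move them too, which was not tested.

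The hairpins differed widely in how unequal their arms were. The 5p arm made up 0.162% ± 0.0339 of the miR-29a counts with ETBF and 0.115% ± 0.0134 in controls, whereas it made up 33.2% ± 3.79 of the miR-29c counts with ETBF, against 36.8% ± 2.71 for controls (SD over 4 libraries a group). The 5p arms of miR-29a and miR-29c were closer in level, 11.7 and 8.81 CPM with ETBF and 7.95 and 6.50 CPM in controls, while their near-identical 3p arms stood 487 times apart. Whether some miR-29a-3p reads were counted as miR-29c-3p was not tested.

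Within the pool of 3p counts, miR-29b-3p took 6.86%, 7.22%, 8.25% and 7.96% with ETBF and 6.49%, 6.91%, 6.15% and 6.38% in controls. ETBF replicate 1 fell just below control replicate 2, and the other ETBF libraries were above every control. MiR-29a-3p took the rest but for miR-29c-3p, 92.2% ± 0.651 with ETBF, against 93.4% ± 0.324 for controls (SD over 4 libraries a group, exact permutation p = 0.0571, adjusted p = 0.0653 over 8 shares and ratios). The log2 ratio of miR-29b-3p to miR-29a-3p was 0.24 higher with ETBF (exact permutation p = 0.0571, adjusted p = 0.0653). That of miR-29c-3p to miR-29a-3p was 0.59 higher (exact permutation p = 0.0286, adjusted p = 0.0653), and that of miR-29b-3p to miR-29c-3p fell by 0.35 (exact permutation p = 0.0286, adjusted p = 0.0653). The last 2 ratios had no overlap between groups, and 0.0286 is the smallest two-sided p that the 70 arrangements of 4 against 4 libraries can give. Over the 8 shares and ratios none passed after adjustment by the exact permutation test, and 3 had the raw p of 0.0286. With that smallest p, a value can pass only if most of the 8 reach it together. The shares and the ratios between 3p arms use the same counts, so they are not independent. Without ETBF replicate 1, 6 of the 8 passed (adjusted p = 0.0381 each). With the miR-29a-3p counts halved, the difference in share was -2.03 percentage points for miR-29a-3p, 1.89 for miR-29b-3p and 0.134 for miR-29c-3p, and none of the 8 passed.

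The 5p arms of the 2 genomic clusters were set against each other. Their levels need not follow the output of a cluster, since the 5p arm's part of the counts differed widely between miR-29a and miR-29c. The log2 ratio of miR-29b-1-5p to miR-29b-2-5p was 1.49, 1.29, 1.48 and 0.98 with ETBF and 1.24, 1.02, 1.17 and 0.21 in controls, so the chromosome 7 arm was the more abundant in all 8 libraries. The groups overlapped, and the difference of 0.40 did not pass (exact permutation p = 0.143). Without control replicate 4, in which the ratio was lowest, the difference was 0.17 (exact permutation p = 0.286). As sums, the chromosome 7 arms over the chromosome 1 arms gave a log2 ratio of 0.84 ± 0.17 with ETBF, against 0.53 ± 0.10 for controls (SD over 4 libraries a group, exact permutation p = 0.0571, adjusted p = 0.0653).

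**Figure D4:**
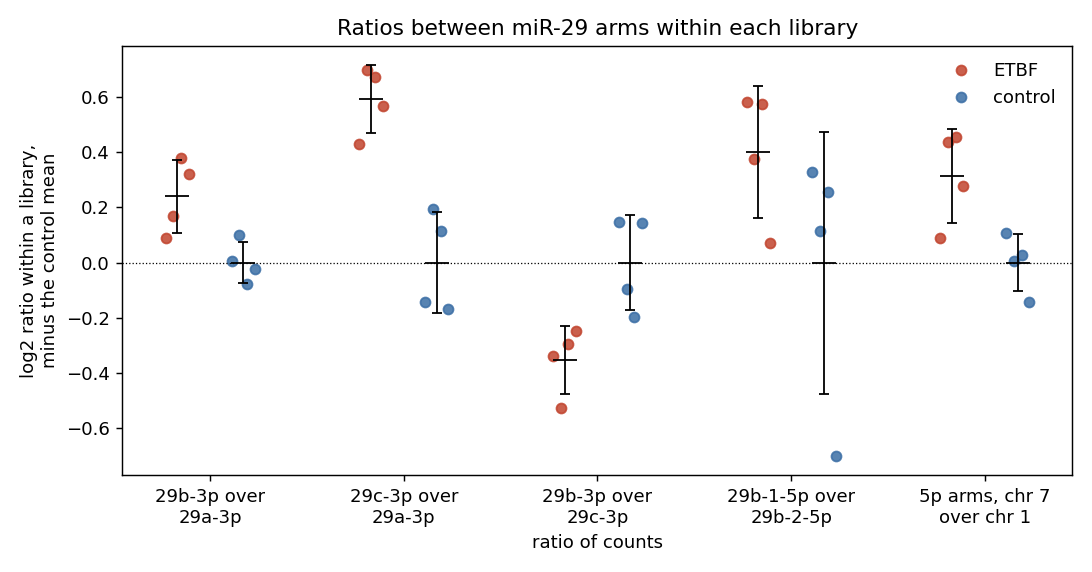
Log2 ratios of counts between miR-29 arms within each library, minus the control mean of that ratio, with ETBF libraries in red and control libraries in blue, and bars and whiskers for the mean and 1 SD. The ratio of miR-29c-3p to miR-29a-3p averages 0.59 above its control mean with ETBF and that of miR-29b-3p to miR-29c-3p 0.35 below, both without overlap.

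For miR-29a-3p and each called member, the other miRNAs with the nearest profiles over the 8 libraries were listed. Likeness was taken as the root mean square difference of log2 CPM profiles, each centred on its own mean, among 143 other miRNAs of at least 100 CPM. Nearest to miR-29a-3p were miR-26b-5p (0.06), miR-181b-5p (0.07) and miR-196a-5p (0.07), where the median miRNA was 0.18 away. Nearest to miR-29b-3p were miR-651-5p (0.06), miR-339-5p (0.08) and miR-148b-3p (0.08), and the median was 0.25. For miR-29c-3p they were miR-20a-5p (0.11), miR-17-5p (0.12) and miR-374a-5p (0.15), and for miR-29a-5p they were miR-31-3p (0.14), miR-590-3p (0.18) and miR-374a-5p (0.18). MiR-29b-1-5p was nearest to 3 minor arms, miR-125b-1-3p (0.22), miR-21-3p (0.26) and miR-27a-5p (0.27), with a median of 0.63. These distances are descriptions over 8 libraries, and all profiles share the libraries' depth and scaling factors.

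Some miRNAs share a known target or regulator with miR-29. For these lists and the markers below, the background was 19.8% called higher and 14.6% lower over all 480 tested miRNAs. Among the 240 with a mean of at least 20 CPM, 23.8% were called higher and 24.2% lower. Of 10 tested miRNAs known to target DNA methyltransferases or the histone methyltransferase EZH2, 1 was called higher, 3 lower and 6 did not pass (median log2 fold change -0.15). The abundant miR-26a-5p, which targets EZH2, fell by 0.49 (SE 0.06), and miR-148a-3p, which targets DNMT1 and DNMT3B, fell by 0.45 (SE 0.09), while its seed relative miR-148b-3p rose by 0.27 (SE 0.08). MiR-101-3p, another EZH2 regulator, was at -0.15 (SE 0.08, adjusted p = 0.162).

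Of 19 tested miRNAs known to be repressed by MYC, 4 were called higher, 6 lower and 9 did not pass (median -0.07). Let-7f-5p, the most abundant, was at -0.11 (SE 0.06, adjusted p = 0.221) and let-7a-5p, a repressor of RAS genes, fell by 0.21 (SE 0.06). MiR-30d-5p had the greatest fall, 0.62 (SE 0.07), and miR-15a-5p, which targets BCL2, the greatest rise, 0.65 (SE 0.10). Among 10 tested miRNAs known to target MCL1, 2 were called higher, miR-15a-5p and miR-16-5p (0.30, SE 0.08), 1 lower, miR-125b-5p (-0.32, SE 0.08), and 7 did not pass (median 0.01). The abundant miR-92a-3p was at -0.00 (SE 0.08).

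Among 12 tested miRNAs known to act on collagen or TGF-beta signalling, 1 was called higher, miR-30a-5p (0.32, SE 0.08), 5 lower and 6 did not pass (median -0.17). The lower ones included miR-26a-5p and miR-200c-3p, a repressor of the ZEB factors (-0.32, SE 0.07). MiR-21-5p, which is profibrotic in several tissues, was at -0.02 (SE 0.07, adjusted p = 0.842). Some miRNAs stand in more than 1 of these lists, so the counts overlap.

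Markers of colorectal epithelium summed to 26664 to 30290 CPM with ETBF and 30472 to 32431 CPM in controls over 9 listed miRNAs. In front were miR-200c-3p, miR-200b-3p and miR-200a-3p. MiR-141-3p, miR-192-5p and miR-194-5p averaged only 183, 149 and 168 CPM with ETBF and 200, 184 and 155 CPM in controls. MiR-215-5p had 29 counts with ETBF and 49 in controls and was not tested. Of the 8 tested, 1 was called higher, miR-31-5p (0.34, SE 0.10), 4 lower and 3 did not pass. MiR-200a-3p fell by 0.19 (SE 0.06), and miR-200b-3p was at -0.03 (SE 0.08). Markers of blood and endothelium summed to 1072 to 1303 CPM with ETBF and 1478 to 1665 CPM in controls over 8 listed, nearly all of it miR-126-3p, and of 5 tested 1 was called higher and 1 lower. MiR-126-3p, known from endothelium, fell by 0.43 (SE 0.08), and miR-451a, known from red blood cells, rose by 1.94 (SE 0.35), averaging 29.4 CPM with ETBF against 7.24 CPM in controls. MiR-486-5p was at -0.09 (SE 0.12) and miR-142-3p at 0.02 (SE 0.17). The myeloid miR-223-3p had 2 counts with ETBF and 1 in controls. Markers of fibroblasts and muscle, cells in which miR-29 is abundant, summed to 482 to 507 CPM with ETBF and 509 to 528 CPM in controls over the 9 of 10 listed that the files name, with 0 of 5 tested called by edgeR and 0 at an unadjusted p under 0.05. MiR-199a-3p was at -0.10 (SE 0.10), miR-145-5p at 0.03 (SE 0.10), miR-143-3p at -0.16 (SE 0.09) and miR-199a-5p at -0.48 (SE 0.50), and the muscle miRNAs miR-133b and miR-206 were at 0 in all 8 libraries.

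**Figure D5:**
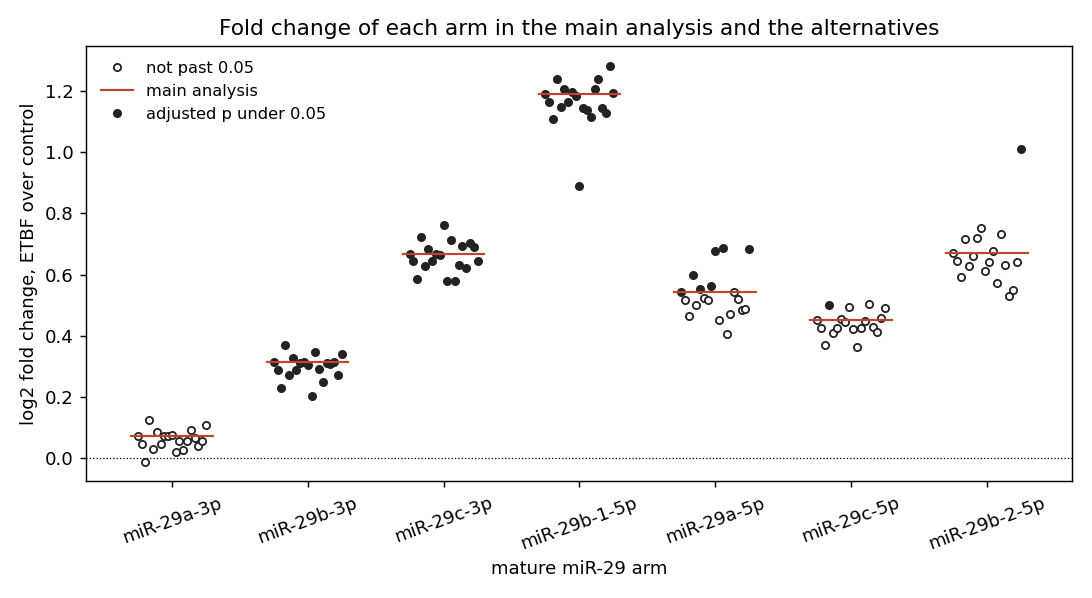
Log2 fold change, ETBF over control, of each miR-29 arm in the main analysis (red line) and in each alternative (points, filled where the adjusted p was under 0.05). MiR-29b-3p, miR-29c-3p and miR-29b-1-5p have filled points throughout, at 0.20 to 0.37, 0.58 to 0.76 and 0.89 to 1.28, whereas the points of miR-29a-5p are mostly open.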

How the data were processed

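The authors deposited raw counts of reads per mature miRNA name, 1 file per library. Per the submitters' processing notes, Trimmomatic, FastQC and featureCounts were used with GRCh37.p5. For the aligner, the strandedness and the miRNA annotation, details were not given in the sources used here. Counts were analysed in R 4.3.3 with the quasi-likelihood test of edgeR 4.0.16 (TMM, 2 groups, no block, filterByExpr with its minimum count set to 10), which left 480 miRNAs, all 7 members among them. P-values are two-sided and adjusted by Benjamini-Hochberg over the 480. Each edgeR SE was obtained as the absolute log2 fold change over the root of its F statistic. For arm ratios the SE was the absolute log2 difference over its limma t statistic. Arm ratios used limma 3.58.1 on log2 counts plus 0.5. Shares were compared by exact permutation over 70 arrangements. Replicates all differed by more than counting noise (chi-square over degrees of freedom, 18.4 to 112). The tests were tested on simulated data. Counts as low as 12 limit the precision of the 5p arms.

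All 7 members are described, together with listed miRNAs: the 3 most abundant of each list and those that changed most. For the most abundant member and each called member, the 3 nearest profiles are named. The members and lists were chosen with earlier results of these data known. The alternatives were RLE, upper-quartile and total scaling, no filter and a minimum count of 50, DESeq2 1.42.0, limma-voom, a replicate block, thinning, removal of a loess trend on GC content of the mature sequence (known for 417 of 480), other pseudocounts (0.1 and 5), halved counts and leaving out each library. Halving miR-29a-3p and summing the 5p arms were added after seeing the data.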

Additional observations from a re-analysis of the deposited data

Results flagged for a closer look

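Among 44 sets of 4 values from 1 group, 2 had a library that stood apart by Dixon's test, which chance does in about 1 set in 20. The log2 ratio of miR-29c-5p to miR-29c-3p was -0.649 in ETBF replicate 1, against -1.15 to -1.09 in the other ETBF libraries. The summed 3p arms were at 7929 CPM in control replicate 4, against 7135 to 7251 CPM in the other controls.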

How the results depend on the processing

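The calls of miR-29b-3p, miR-29c-3p and miR-29b-1-5p held in all 18 alternatives, with adjusted p up to 0.0484, 0.00996 and 0.00132. The summed 5p arms, a sum chosen after their values were seen, held in all 18 too (0.66 to 0.85). The number of members called was 3 to 5, and that over all miRNAs 143 to 168. With the replicate block 159 miRNAs and 4 members were called. The numbers were not taken as pairs, since no label says that they mark a shared batch. Deviations of same-numbered libraries from their group means had correlations of -0.0584 to 0.0608. The within-pair permutation cannot go below p = 0.125. MiR-29c-5p passed only with library totals and miR-29b-2-5p only without control replicate 4, and with the stricter filter both were untested. With upper-quartile scaling miR-29a-3p and its sum with miR-29c-3p were each at -0.010. Without a filter, over 453 pairs, 9 arm ratios passed, against 39 of 120, and that of miR-29b-1 was lost (adjusted p = 0.152). Leaving out 1 library at a time, the difference in the share of miR-29a-3p was -1.41 to -0.936 percentage points, of miR-29b-3p 0.866 to 1.33 and of miR-29c-3p 0.0678 to 0.0815. The log2 ratios ranged from 0.19 to 0.29 for miR-29b-3p over miR-29a-3p, from 0.54 to 0.66 for miR-29c-3p over miR-29a-3p and from 0.27 to 0.39 for the chromosome 7 over the chromosome 1 5p arms. Between 0 and 6 of the 8 values passed. The causes of these changes were not tested. Depth limits the 5p arms most, with 12 to 74 counts in a library.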
